A study of Mus musculus with 24 samples.

Results

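The gastrocnemius muscle (GM), the large calf muscle that extends the ankle, was compared between mice that lack Crif1 in the liver and their controls. Its members are the 6 GM libraries of a series of 24, 3 from LKO and 3 from Ctrl mice, and they were taken by the tissue and genotype in the sample labels, so no measured value chose them. Bulk RNA-seq was run on liver, inguinal white adipose tissue (iWAT), GM and hypothalamus, with 3 libraries of each genotype per tissue. All mice were C57BL/6 animals of 8 weeks on chow. Ctrl mice were Crif1flox/flox and LKO mice were Alb-Cre;Crif1flox/flox, so both groups carried the floxed alleles and only LKO mice carried Cre. The albumin promoter that drives this Cre is active in hepatocytes, and the muscle of LKO mice therefore still has an intact floxed Crif1. Neither a shared mouse behind the 4 tissues nor separate animals behind the 3 libraries of a group can be read from the labels, so p-values measure the spread between these samples only.

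Crif1 encodes a protein of the mitochondrial ribosome, and its loss in hepatocytes impairs the making of respiratory chain subunits there. Skeletal muscle burns glucose and fatty acids and shifts between them with feeding, fasting and exercise. The shift is set in large part at the pyruvate dehydrogenase complex, which admits glucose-derived carbon into the mitochondrion and is switched off by the pyruvate dehydrogenase kinases. PPAR nuclear receptors, FOXO factors and the glucocorticoid receptor are known to raise transcripts of fatty acid use and protein breakdown in fasted muscle. The comparison asked what differs in a muscle that keeps its own Crif1 when the hepatocytes have lost theirs.

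Values are FPKM, the deposited count of fragments relative to transcript length and library size. Fold changes are LKO against Ctrl on log2(FPKM + 1), which understates the change of genes under a few FPKM. Of 24532 genes in the table, 18429 were above 0 in any GM library, and the 10877 that reached 1 FPKM in 3 or more of the 6 libraries were tested with limma. For the unadjusted criterion, limma's p had to be under 0.05 and the 2 group means had to differ 1.5-fold or more on the log scale. For the adjusted criterion, the p after Benjamini-Hochberg adjustment over the 10877 genes had to be under 0.05 as well. In bulk tissue, fewer cells of a type and less RNA per cell cannot be told apart.

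The GM libraries held between 4.45 and 5.92 gigabases each, as the ratio of FPKM to coverage gives it, and correlated with each other at 0.987 to 0.996 across genes (Pearson, log2 scale), against at most 0.854 with any library of another tissue. The fast myosin heavy chain gene Myh4 stood at 10330 to 11660 FPKM and skeletal actin Acta1 at 23440 to 28050 FPKM in the 6 libraries, as the label of the tissue asks. Crif1, listed as Gadd45gip1 (mm10 chr8:84832282-84835482), was 15.9, 13.5 and 12.9 FPKM in Ctrl 1, 2 and 3 and 13.2, 12.7 and 17.4 FPKM in LKO 1, 2 and 3. The groups overlapped in GM, with a log2 fold change of 0.02 (SE 0.13, limma adjusted p = 0.987), whereas its mean in liver was 13.6 ± 1.05 FPKM in Ctrl and 3.30 ± 1.83 FPKM in LKO mice (SD, n = 3).

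In LKO muscle, 63 genes were higher and 35 lower than in Ctrl muscle by the unadjusted criterion, which is 0.579% and 0.322% of the genes tested. By the adjusted criterion limma called 0 genes (0%), with 0.285 as the smallest adjusted p, while 743 genes had an unadjusted p under 0.05. The genes named below as higher or lower are thus called by the unadjusted criterion alone. All 3 LKO libraries lay above all 3 Ctrl libraries for 476 genes (4.38%) and below them for 783 (7.2%), and 73 of the 98 called genes were among them, 52 of them higher. The count of 98 became 201 without LKO 1 (78 higher, 0.733% of 10640 genes tested, and 123 lower, 1.16%) and 171 without Ctrl 2 (76 higher, 95 lower). Of the 98 genes, 32 were called in each of the 6 fits that leave out 1 library, 24 of them higher, and 25, 19 of them higher, in every alternative setting that tested them at the 1.5-fold limit. Of those 25, 17 were called in all 17 settings, 12 of them higher. Zfp973 and Lvrn were tested in 13 settings, none of which left out an LKO library. At a limit of 2-fold, 12 genes were higher and 13 lower. Those 25 included Pdk4, Angptl4, Ucp3, Acot2, Mt2, Txnip, Foxo1, Sesn1, Fam107a and Trp53inp1 among the higher genes and G0s2, Myod1, Bhlhe41 and Klf2 among the lower ones.

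**Figure D1:**
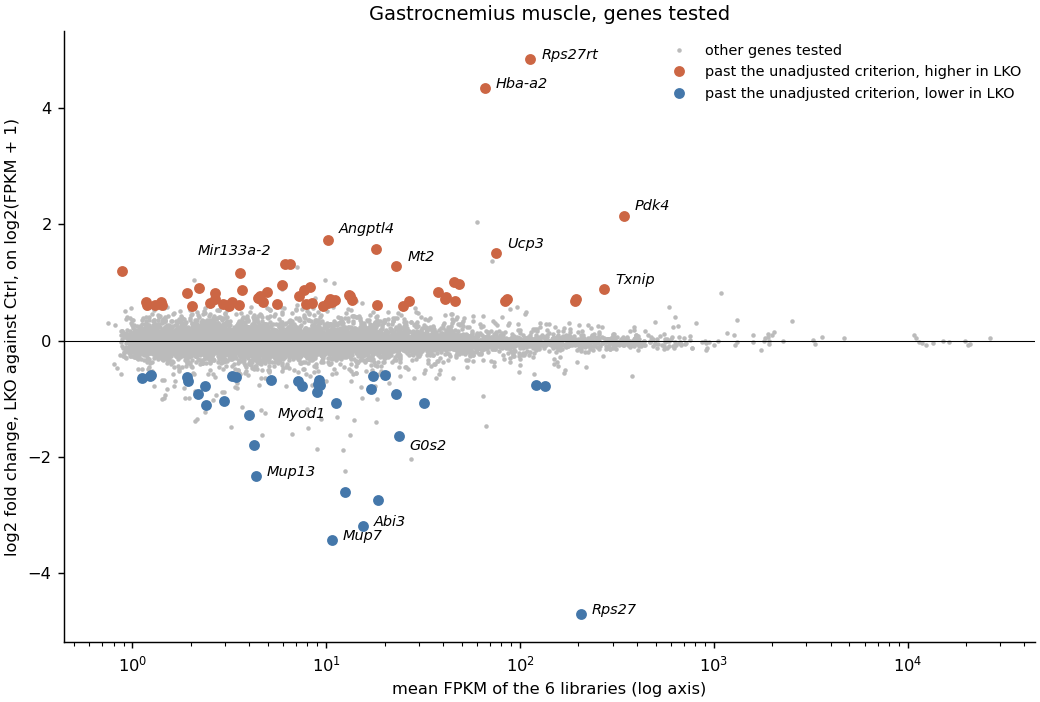
Each dot is 1 of the 10877 genes tested in gastrocnemius muscle, with the mean FPKM of the 6 libraries on a log axis and the log2 fold change of LKO against Ctrl on the other. Coloured dots are the 63 higher and 35 lower genes called by the unadjusted criterion, of which Pdk4 is the called gene of highest mean level, and the outermost labelled dots, Rps27, Rps27rt and Hba-a2, have near-identical copies that share reads.

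Several genes of pyruvate and fatty acid use were higher in LKO muscle. Pdk4 (chr6:5483351-5496278), the kinase that inactivates pyruvate dehydrogenase when fatty acids are burned, was 58.3, 176 and 165 FPKM in Ctrl 1, 2 and 3 and 359.7, 690.4 and 609.6 FPKM in LKO 1, 2 and 3. The lowest LKO library stood above the highest Ctrl library, and LKO 1 was the lowest of its group as Ctrl 1 was of the other. The means were 133 ± 65.1 and 553 ± 172 FPKM (SD, n = 3), a log2 fold change of 2.15 (SE 0.44, limma adjusted p = 0.430). Of the 13 tested genes that control pyruvate dehydrogenase, Pdk4 alone was called (without LKO 1, Pdp1 as well), and the list's median log2 fold change was -0.03, as was that of all genes tested. The phosphatase Pdp1, which reverses the kinases, was 14.6 to 19.7 FPKM in Ctrl and 10.2 to 13.1 FPKM in LKO mice without overlap, with a log2 fold change of -0.55 (SE 0.13) that did not reach the fold limit, except with a pseudocount of 0.1 and without Ctrl 2 or LKO 1. Its relative Pdp2 went the other way, from 1.06 to 1.21 FPKM in Ctrl to 1.495 to 2.67 FPKM in LKO mice, and was not called either.

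The nuclear receptor hexamer AGGTCA is a core element of the sites that receptors including the PPARs bind, and was 1 of 7 motifs searched. It was found for Ucp3, Cpt1a and Plin5. It was not found for Acot1, Acot2, Plin4, Ucp2 or G0s2, some of which may lack a RefSeq entry, and Angptl4 has none. The genes below were picked with the hexamer known, so its recurrence among them is no result. The stretches of 250 bases before the RefSeq start are shown for 4 genes of this group. They are read 5′ to 3′ on the gene's strand from GRCm38.p6, the assembly of mm10, and capitals mark AGGTCA or, where it lies on the other strand, TGACCT. Pdk4 lies at chr6:5496279-5496528 on the minus strand, Ucp3 at chr7:100472741-100472990 on the plus strand, Cpt1a at chr19:3323051-3323300 on the plus strand and Plin5 at chr17:56117549-56117798 on the minus strand.
Pdk4: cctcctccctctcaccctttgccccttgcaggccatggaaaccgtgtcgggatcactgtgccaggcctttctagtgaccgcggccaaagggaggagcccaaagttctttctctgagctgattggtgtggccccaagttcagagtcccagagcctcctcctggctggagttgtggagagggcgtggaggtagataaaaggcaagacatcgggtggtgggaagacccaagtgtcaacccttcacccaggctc
Ucp3: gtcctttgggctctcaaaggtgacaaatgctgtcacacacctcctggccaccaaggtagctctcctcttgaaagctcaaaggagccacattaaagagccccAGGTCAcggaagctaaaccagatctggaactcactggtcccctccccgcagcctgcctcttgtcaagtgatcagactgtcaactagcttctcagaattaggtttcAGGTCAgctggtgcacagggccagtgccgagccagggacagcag
Cpt1a: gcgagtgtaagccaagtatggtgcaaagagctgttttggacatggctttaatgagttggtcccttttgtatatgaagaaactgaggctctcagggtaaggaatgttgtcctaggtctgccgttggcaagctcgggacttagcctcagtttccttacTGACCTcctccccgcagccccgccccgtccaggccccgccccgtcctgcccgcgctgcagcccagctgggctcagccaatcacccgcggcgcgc
Plin5: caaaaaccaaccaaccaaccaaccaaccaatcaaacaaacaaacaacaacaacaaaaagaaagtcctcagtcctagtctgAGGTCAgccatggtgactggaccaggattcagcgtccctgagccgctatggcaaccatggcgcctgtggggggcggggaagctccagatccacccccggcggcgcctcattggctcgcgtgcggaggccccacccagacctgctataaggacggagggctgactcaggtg
The hexamer begins 149 and 44 bases before the start of Ucp3, 94 before that of Cpt1a (other strand) and 170 before that of Plin5 (the first of 2 Plin5 starts in the table), and the Pdk4 stretch holds none of the 7 motifs. Over windows of 300 bases (250 before and 50 after the start), AGGTCA on either strand occurred in 16.3% of the 32851 promoters of the table, in 15% of the 8350 tested genes matched to it and in 9 of the 45 matched genes called higher, with 4 of the 23 called lower. A match is a string of letters in a window and was not tested as a binding site.

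Ucp3, the mitochondrial carrier protein of muscle that goes up with fatty acid supply, was 22.7, 49.97 and 45.2 FPKM in Ctrl 1, 2 and 3 and 73.9, 146 and 115 FPKM in LKO 1, 2 and 3. The groups did not overlap, and the library order within each group was that of Pdk4. Its log2 fold change was 1.5 (SE 0.34, limma adjusted p = 0.455). Angptl4, a secreted inhibitor of lipoprotein lipase that PPARs and fasting induce, was 3.76, 5.91 and 2.57 FPKM in Ctrl and 25.4, 11.5 and 12.0 FPKM in LKO mice. Here LKO 1 was the highest library rather than the lowest of its group. The log2 fold change was 1.73 (SE 0.34, limma adjusted p = 0.379). Angptl4 is also at least 10-fold higher in iWAT than in any GM library, and summed adipocyte markers, 297 to 876 FPKM in Ctrl and 309.6 to 1025 FPKM in LKO mice, were highest in LKO 1. With the adipocyte marker level as a covariate, an alternative chosen after the values were seen, Angptl4 was the 1 gene past the adjusted criterion.

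**Figure D2:**
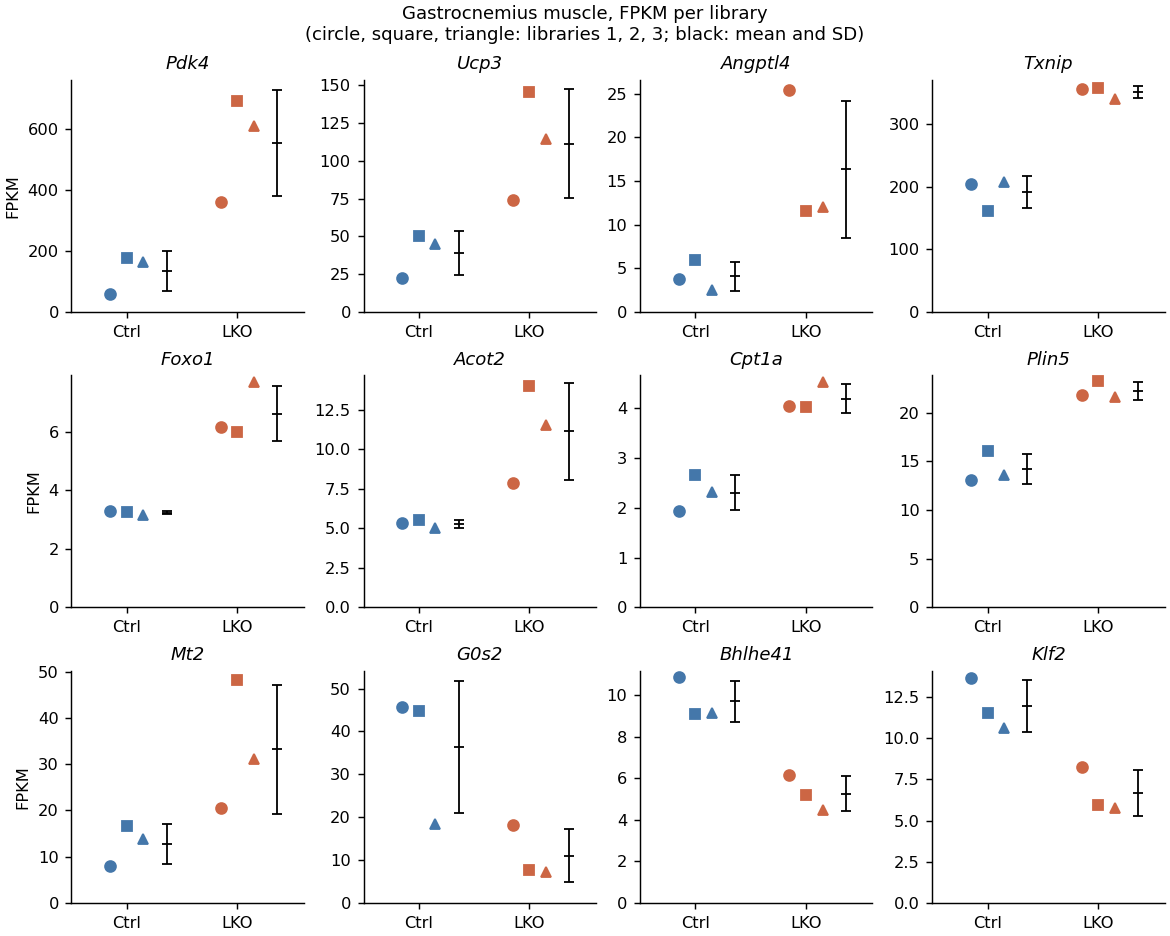
FPKM of 12 genes in each gastrocnemius library, on linear axes from 0, with blue for Ctrl and orange for LKO, the symbol for the library number, and black bars for the mean and SD of 3 libraries. Pdk4, Ucp3, Angptl4, Txnip, Foxo1, Acot2, Cpt1a, Plin5 and Mt2 have every LKO library above every Ctrl library, and G0s2, Bhlhe41 and Klf2 have every LKO library below every Ctrl library.

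Of the 31 tested genes of fatty acid uptake and oxidation, 3 were higher and 0 lower by the criterion, against 0.579% and 0.322% of all genes. Of these members, 24 lay above 0 in log2 fold change, and the median was 0.09 against -0.03 over all genes tested. The groups did not overlap for 10 members that were higher in LKO mice and for 1 that was lower, against 4.38% and 7.2% of all genes. Cpt1a, a carnitine palmitoyltransferase that passes fatty acids into the mitochondrion and is the liver form, was 1.94, 2.66 and 2.31 FPKM in Ctrl and 4.04, 4.02 and 4.53 FPKM in LKO mice. The 3 LKO libraries lay close together above all Ctrl libraries (log2 fold change 0.66, SE 0.11, limma adjusted p = 0.341), and the call was lost without Ctrl 1 and with the hepatocyte marker level as a covariate, at 0.58 in both. Cpt1a is at least 10-fold higher in liver than in any GM library. Acot2, a mitochondrial thioesterase that frees fatty acids from coenzyme A, was 5.34, 5.52 and 5.0 FPKM in Ctrl and 7.91, 14.0 and 11.5 FPKM in LKO mice. Its log2 fold change was 0.92 (SE 0.18), and its cytosolic relative Acot1, close to it in sequence so that reads may be shared, had 0.71 (SE 0.15).

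No enzyme of beta-oxidation itself was called. Acadm, the medium-chain acyl-CoA dehydrogenase, was 137 to 165 FPKM in Ctrl and 159 to 165 FPKM in LKO mice, a log2 fold change of 0.09 (SE 0.08). Acadvl, the very-long-chain enzyme, had -0.08 (SE 0.06), and both overlapped between the groups. Acadl (0.18), the trifunctional protein genes Hadha (0.16) and Hadhb (0.14), and the isomerases Eci1 (0.18) and Eci2 (0.24) had every LKO library above every Ctrl library, with changes far under the fold limit. Ppara, the receptor that controls many of these genes, was 3.12 to 3.52 FPKM in Ctrl and 4.03 to 4.55 FPKM in LKO mice without overlap. Its log2 fold change of 0.30 (SE 0.08) stayed under the fold limit.

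Among 28 tested PPAR targets and genes of triglyceride turnover, 5 were higher and 1 lower, with a median of 0.10 that turned to -0.01 without LKO 1, when 4 were higher and 1 lower. Over all genes, 0.579% were called higher and 0.322% lower. No overlap was seen for 7 members higher in LKO mice and 2 lower, against 4.38% and 7.2% of all genes. Beside Ucp3 and Angptl4 the higher genes were Plin4 and Plin5, coat proteins of the lipid droplet, and Ucp2, a relative of Ucp3. Plin5 was 13.1, 16.02 and 13.6 FPKM in Ctrl and 21.8, 23.3 and 21.6 FPKM in LKO mice, which left a gap of more than the spread within either group (log2 fold change 0.61, SE 0.09, limma adjusted p = 0.327). This change sits just past the fold limit, and the call was lost without Ctrl 1, Ctrl 3 or LKO 2, at 0.56 to 0.58. Plin4 was 48.6 to 81.2 FPKM in Ctrl and 86.5 to 130 FPKM in LKO mice (0.71, SE 0.21), a call lost without Ctrl 1 or LKO 2. Ucp2 was highest in LKO 1, at 19.0 FPKM against 10.7 in LKO 2 and LKO 3, and its call was lost without Ctrl 1, Ctrl 3 or LKO 1.

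G0s2 (chr1:193272160-193273188), which inhibits the triglyceride lipase ATGL, was the list's lower gene. It was 45.7, 44.8 and 18.5 FPKM in Ctrl 1, 2 and 3 and 18.2, 7.68 and 7.204 FPKM in LKO 1, 2 and 3. The groups met without overlap, since Ctrl 3 and LKO 1 differed by little, and the log2 fold change was -1.64 (SE 0.43, limma adjusted p = 0.516). Ctrl 3 also had the lowest adipocyte marker sum of its group. With the adipocyte level as a covariate G0s2 was still called. The lipase itself (Pnpla2) did not pass the criterion.

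Lipogenesis genes leaned the other way, with 14 of 17 tested members below 0 and a median of -0.21, and none called. Fasn, the fatty acid synthase, was 15.9, 13.6 and 4.17 FPKM in Ctrl and 28.1, 2.65 and 2.73 FPKM in LKO mice. LKO 1 was the highest of all 6 libraries and the other LKO libraries the lowest. The adipocyte markers were highest in LKO 1 too. With their level as a covariate, chosen after the values were seen, the log2 fold change of Fasn went from -0.56 to -0.17. That of Srebf1 went from -0.36 to -0.29 and that of Sqle from -0.36 to -0.28. The cause was not tested. Without LKO 1, 4 lipogenesis genes were lower by the criterion and the median was -0.39.

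Of 32 tested genes of glucose uptake and glycolysis, 2 were called higher and 0 lower, against 0.579% and 0.322% of all genes, and the median was -0.01. Txnip (chr3:96557957-96561857), an arrestin that restrains glucose uptake, was 204, 162 and 208 FPKM in Ctrl and 356, 357.5 and 339.9 FPKM in LKO mice. The groups were far apart relative to the spread within each, with means of 191 ± 25.6 and 351 ± 9.81 FPKM (SD, n = 3) and a log2 fold change of 0.88 (SE 0.10, limma adjusted p = 0.285). Pfkfb3, which makes the activator of phosphofructokinase, was 31.3, 38.1 and 20.5 FPKM in Ctrl and 39.6, 76.4 and 68.1 FPKM in LKO mice, so LKO 1 lay just above Ctrl 2 (1.00, SE 0.29). Fbp2, the muscle fructose bisphosphatase, was 19.98 to 22.8 FPKM in Ctrl and 24.6 to 28.3 FPKM in LKO mice without overlap and under the fold limit (0.27, SE 0.08). The glucose transporter Slc2a4 was 207, 208 and 214 FPKM in Ctrl and 169, 207 and 202 FPKM in LKO mice, with a log2 fold change of -0.13 (SE 0.08). None of 18 glycogen genes was called (median -0.06), although Ppp1r3a, the glycogen-targeting subunit of the muscle phosphatase, was lower without overlap, 38.0 to 46.5 FPKM against 31.2 to 34.6 FPKM (-0.35, SE 0.09).

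Of 34 tested insulin signalling genes, 0 were called higher and 1 lower, against 0.579% and 0.322% of all genes. Tbc1d1, a Rab GTPase-activating protein that acts on the traffic of glucose transporters, was 8.37, 7.204 and 11.8 FPKM in Ctrl and 5.81, 5.75 and 4.14 FPKM in LKO mice. The groups did not overlap (log2 fold change -0.69, SE 0.19), and the call was lost without Ctrl 3 or LKO 3. The median of the list was 0.01.

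Of 33 tested genes of FOXO signalling, atrophy and autophagy, which FOXO factors drive in wasting and fasted muscle, 6 were called higher and 0 lower, where 0.579% and 0.322% of all genes were, though the median was only 0.04 and 22 lay above 0 (without LKO 1, 7 higher, 1 lower and a median of 0.08). Foxo1 (chr3:52268337-52350109) was 3.30, 3.25 and 3.17 FPKM in Ctrl and 6.17, 5.97 and 7.70 FPKM in LKO mice. The Ctrl libraries barely differed among themselves, and the log2 fold change was 0.84 (SE 0.10, limma adjusted p = 0.285). Sesn1, a sestrin that restrains mTORC1, was 11.2, 10.3 and 7.04 FPKM in Ctrl and 15.7, 16.9 and 17.7 FPKM in LKO mice (0.78, SE 0.15). Both were called in each of the 6 fits without 1 library. The metallothionein Mt2, a metal-binding protein that glucocorticoids and zinc induce, was 8.08, 16.6 and 13.8 FPKM in Ctrl and 20.6, 48.2 and 31.1 FPKM in LKO mice. Its lowest LKO library lay above its highest Ctrl library (1.28, SE 0.34, limma adjusted p = 0.516). Mt1 overlapped between the groups (0.75, SE 0.25) and lost its call without Ctrl 1, Ctrl 3 or LKO 2. The sum of both, which reads shared between the 2 genes do not affect, was 33.7 to 55.4 FPKM in Ctrl and 57.0 to 118 FPKM in LKO mice, a log2 fold change of 0.95.

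The ubiquitin ligase Trim63 (MuRF1), which tags contractile proteins for breakdown, was 139, 132 and 158 FPKM in Ctrl and 149, 292 and 301 FPKM in LKO mice. LKO 1 lay within the Ctrl range while LKO 2 and LKO 3 stood well above it, so the groups overlapped (log2 fold change 0.72, SE 0.26, limma adjusted p = 0.654). The call was lost without Ctrl 1, Ctrl 2, LKO 2 or LKO 3 and after median-ratio scaling, and without LKO 1 Trim63 passed the adjusted criterion. Gadd45a, a stress gene of denervated muscle, was 15.1 to 23.9 FPKM in Ctrl and 25.8 to 32.9 FPKM in LKO mice (0.60, SE 0.17), a call lost without Ctrl 3, LKO 2 or LKO 3. The other atrophy ligase, Fbxo32, was not called.

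The 250 bases before the starts of Txnip and Trim63 are shown because they hold the FOXO motif GTAAACA, which the windows of Sesn1 and Wbp1l also hold. Txnip lies at chr3:96557707-96557956 and Trim63 at chr4:134314870-134315119, both on the plus strand of GRCm38.p6, and capitals mark the motifs.
Txnip: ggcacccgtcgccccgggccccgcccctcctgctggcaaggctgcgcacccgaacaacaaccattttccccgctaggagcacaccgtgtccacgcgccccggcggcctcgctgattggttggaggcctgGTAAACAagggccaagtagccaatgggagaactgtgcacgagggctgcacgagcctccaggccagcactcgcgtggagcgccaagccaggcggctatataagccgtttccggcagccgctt
Trim63: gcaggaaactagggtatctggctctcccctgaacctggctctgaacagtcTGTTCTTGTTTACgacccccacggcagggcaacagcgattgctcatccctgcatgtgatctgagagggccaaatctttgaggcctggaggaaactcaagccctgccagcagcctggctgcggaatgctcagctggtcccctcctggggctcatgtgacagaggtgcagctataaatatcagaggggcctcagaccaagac
In Txnip GTAAACA begins 121 bases before the start. In Trim63 the capitals are TGTTCT, the glucocorticoid receptor hexamer AGAACA on the other strand, followed with no overlap by TGTTTAC, the FOXO motif on the other strand, which begin 200 and 194 bases before the start. GTAAACA on either strand occurred in 3.6% of all promoters, 3.1% of the tested genes and 4 of the 45 matched genes called higher (8.9%), and in 0 of the 23 matched genes called lower. AGAACA occurred in 19.0% of all promoters and in 14.6% of the tested genes, against 5 of the 45 higher genes (11.1%) and 8 of the 23 lower genes (34.8%). The E-box CACGTG occurred in 12.3% of the tested genes, 2 higher genes (4.4%) and 1 lower gene, and the ATF4 motif TGATGCAA in 0.7% of the tested genes, 2 higher genes (4.4%) and 1 lower gene. The D-box TTATGTAA and the cAMP response element TGACGTCA occurred in 0.6% and 3.7% of the tested genes and in 0 called genes. Counts this small describe these genes and were given no test.

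Glucocorticoid-induced genes had the highest median of the lists, 0.29, with 18 of 23 tested members above 0 and 6 called higher (Angptl4, Mt2, Mt1, Sesn1, Fam107a and Arrdc2) and 0 lower, against 0.579% and 0.322% of all genes. The groups did not overlap for 6 members higher in LKO mice, against 4.38% of all genes. Fam107a, an actin-binding protein known as a glucocorticoid target, was 1.25, 1.69 and 1.98 FPKM in Ctrl and 2.96, 4.19 and 3.85 FPKM in LKO mice, every LKO library above every Ctrl library (log2 fold change 0.82, SE 0.15). Arrdc2, an arrestin-domain protein, was 21.0, 26.3 and 52.6 FPKM in Ctrl and 41.7, 77.7 and 70.4 FPKM in LKO mice, and here Ctrl 3 exceeded LKO 1 (0.97, SE 0.36). Its call was lost without Ctrl 1, Ctrl 2, LKO 2 or LKO 3. Glul, the glutamine synthetase that glucocorticoids raise in muscle, was 83.9 to 93.3 FPKM in Ctrl and 95.1 to 148 FPKM in LKO mice without overlap but under the fold limit (0.45, SE 0.15), and was called only without LKO 1. The 2 metallothioneins and Sesn1 also belong to the atrophy list and Angptl4 to the PPAR list, so these counts are not independent of each other.

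Immediate early genes, which respond within minutes to hours to handling, contraction and stress, were called 2 times higher and 1 time lower of 23 tested, against 0.579% and 0.322% of all genes, with a median of 0.15. Without LKO 1, 6 were higher and 1 lower, with a median of 0.30. Egr1 was 1.14, 1.295 and 0.990 FPKM in Ctrl and 2.31, 5.45 and 2.04 FPKM in LKO mice (0.91, SE 0.27), a call lost without LKO 2. The nuclear receptor Nr4a3 was also highest in LKO 2, at 9.41 FPKM, and overlapped between the groups (1.17, SE 0.39). Its call was lost without Ctrl 1 or Ctrl 3. Atf3 and the heat shock gene Hspa1a stood out in LKO 2 alone, at 25.4 and 40.6 FPKM, against 1.99 to 4.46 FPKM and 4.78 to 5.72 FPKM in the other libraries, and neither was called. Klf2, a shear-responsive factor of vessel walls, was the lower gene, 13.7, 11.6 and 10.6 FPKM in Ctrl and 8.27, 5.93 and 5.78 FPKM in LKO mice, with no overlap (-0.76, SE 0.15, limma adjusted p = 0.379).

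In the circadian list of 20 tested genes, 0 were called higher and 1 lower, against 0.579% and 0.322% of all genes. Bhlhe41 (DEC2), a repressor of the clock, was 10.9, 9.09 and 9.14 FPKM in Ctrl and 6.14, 5.20 and 4.46 FPKM in LKO mice, and no LKO library reached a Ctrl library (log2 fold change -0.78, SE 0.12, limma adjusted p = 0.336). Its relative Bhlhe40 was also lower without overlap, 22.9 to 26.9 FPKM against 13.7 to 20.7 FPKM (-0.55, SE 0.14), under the fold limit except without Ctrl 3 or LKO 3. The repressor Cry1 had -0.43 (SE 0.13), again without overlap. The groups did not overlap for 2 members higher in LKO mice and 4 lower, against 4.38% and 7.2% of all genes. The median of the list was -0.01, and the labels give no hour of collection.

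Of 18 tested p53 targets, 4 were called higher and 0 lower, against 0.579% and 0.322% of all genes, with a median of -0.02. Trp53inp1, which acts in autophagy and cell death, was 3.32, 3.38 and 3.55 FPKM in Ctrl and 5.22, 6.66 and 6.29 FPKM in LKO mice, with no overlap (0.67, SE 0.10, limma adjusted p = 0.330). Acer2, the alkaline ceramidase of the Golgi and the 1 gene called of 18 in the ceramide list, was 0.857, 1.06 and 0.844 FPKM in Ctrl and 1.70, 2.31 and 1.77 FPKM in LKO mice. These levels are low, yet the groups did not overlap (0.61, SE 0.11, limma adjusted p = 0.379). The call was lost without Ctrl 1, Ctrl 3 or LKO 2, at 0.51 to 0.58. Sesn1 and Gadd45a made up the rest, and the classical targets Cdkn1a, Mdm2 and Ccng1 were not called.

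Myod1 (chr7:46376474-46379092), the myogenic transcription factor of satellite cells and fast fibres, was 16.1, 13.6 and 16.2 FPKM in Ctrl 1, 2 and 3 and 10.7, 6.30 and 4.28 FPKM in LKO 1, 2 and 3. All LKO libraries were below all Ctrl libraries (log2 fold change -1.08, SE 0.26, limma adjusted p = 0.506), and the difference was called in every alternative setting. It was the 1 call among 17 myogenic and regeneration genes, whose median was -0.04 and of which 2 were lower without LKO 1. The summed satellite cell markers were 12.5 to 15.2 FPKM in Ctrl and 14.6 to 16.02 FPKM in LKO mice. The 2 tested markers of that sum, Cdh15 and Chodl, had the higher mean in LKO mice. Pax7, too low to be tested, went the other way, from 0.591 to 0.712 FPKM in Ctrl to 0.154 to 0.536 FPKM in LKO mice. Gadd45a was the 1 call among 17 genes of the neuromuscular junction and denervation, in which the acetylcholine receptor subunits were not called and 1 gene was lower without LKO 1. Sat1, the acetyltransferase that breaks down polyamines, was higher but overlapped between the groups (0.67, SE 0.25), a call lost without Ctrl 2, LKO 1 or LKO 3, while 9 of the 10 polyamine genes tested lay below 0.

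In the muscle's own respiratory chain, none of the 79 nuclear subunit genes was called, 66 lay below 0 and 13 above, and the median was -0.04 against -0.03 over all genes, 6531 of 10877 of which lay below 0 too. Without LKO 1 the list's median was -0.02, above the -0.07 of all genes. The groups did not overlap for 11 subunits lower in LKO mice and for none higher, where 7.2% of all genes were lower without overlap. Uqcrq, a small subunit of complex III, was 176 to 186 FPKM in Ctrl and 113 to 171 FPKM in LKO mice (-0.43, SE 0.15). Ndufb4 of complex I was 238.0 to 242 FPKM in Ctrl and 203 to 224 FPKM in LKO mice (-0.19, SE 0.06). Of 15 mitochondrial chaperones and proteases, 12 lay below 0, in a range of -0.16 to 0.01, and none was called. There was no overlap for 4 of them, Dnaja3, Clpp, Oma1 and Afg3l2, all lower in LKO mice, and for none higher.

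The mitochondrial integrated stress response, which in muscle with its own mitochondrial defect raises Atf4 targets, held 1 called gene of 21 tested, with a median of -0.00, and 2 without LKO 1. That gene was Chac1, which degrades glutathione, at 3.25, 19.3 and 5.32 FPKM in Ctrl and 10.1, 35.6 and 34.5 FPKM in LKO mice. The groups overlapped and the error was wide (log2 fold change 1.57, SE 0.66), and the call was lost without Ctrl 1, Ctrl 3, LKO 2 or LKO 3. Fgf21 was at most 0.0677 FPKM and Gdf15 0.0819 to 0.463 FPKM in any GM library, so neither was tested. Of their receptors, Klb was at most 0.246 FPKM and Gfral was listed at 0 in all 6 libraries, and Fgfr1 was 16.5 to 18.5 FPKM in Ctrl and 18.6 to 24.8 FPKM in LKO mice (0.32, SE 0.11), without overlap and under the fold limit.

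Fast-fibre genes were level, with none of 17 called (median -0.01, range -0.15 to 0.12). All 14 tested slow-fibre genes lay above 0, with a median of 0.23, but the groups overlapped for each and none was called, though 1 was without LKO 1. Sln, the sarcolipin that regulates the calcium pump, had the widest change of that list, at 58.7, 47.2 and 14.2 FPKM in Ctrl and 85.8, 47.4 and 175 FPKM in LKO mice (1.36, SE 0.61). Of 26 sarcomere and cytoskeleton genes, 2 were called higher and 0 lower, against 0.579% and 0.322% of all genes. Lmod2, which nucleates actin at the thin filament, was 61.8, 68.3 and 60.9 FPKM in Ctrl and 82.2, 113.8 and 113.9 FPKM in LKO mice, without overlap (0.68, SE 0.13), and Xirp1, a repair protein of the intercalated disc and injured fibre, had 0.68 (SE 0.26) with LKO 2 far above the rest, a call lost without any of the 3 Ctrl libraries or LKO 2. None of 22 calcium handling genes was called, nor any of 26 genes of amino acid use, of which 2 were higher without LKO 1.

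Extracellular matrix genes lay above 0 in 29 of 31 cases, with a median of 0.27, and none reached the criterion. No overlap between groups was seen for 8 members higher in LKO mice, where 4.38% of all genes were, and without LKO 1 the median was 0.16 and 1 gene was called higher. Sparc, a collagen-binding matrix protein, was 66.2, 80.7 and 81.3 FPKM in Ctrl and 109.8, 152 and 87.9 FPKM in LKO mice (0.58, SE 0.19), and the periostin gene Postn was 5.56 to 6.87 FPKM in Ctrl and 7.75 to 12.7 FPKM in LKO mice (0.57, SE 0.16). Both crossed the fold limit in several alternative settings. The marker sums of fibroblasts and tendon were also higher in LKO mice. The fibroblast markers Col1a1, Dcn and Lum are members of this list too, so that sum is not independent of it. Of the 6 fibroblast markers, 5 had the higher mean in LKO mice. The remaining marker, Pi16, was 20.1 to 25.2 FPKM in Ctrl and 25.2, 13.9 and 15.6 FPKM in LKO 1, 2 and 3. Summed fibroblast markers were 242 to 289 FPKM in Ctrl and 304 to 357 FPKM in LKO mice (exact permutation p = 0.2) and tendon markers 57.3 to 90.2 against 97.5 to 111 FPKM (exact permutation p = 0.1, the smallest that 3 against 3 allows), and their part in the result was not tested. Fmod, a tendon marker named here because of its values, was higher by the criterion (0.72, SE 0.19), a call lost without Ctrl 1. Of the rest, none of 19 heat shock genes and 18 interferon genes was called (without LKO 1, 1 interferon gene was lower and that list's median went from 0.01 to -0.25), the 2 metallothioneins were the calls among 21 antioxidant genes, and Angptl4 was the call among 17 secreted factors, of which 2 were higher without LKO 1.

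**Figure D3:**
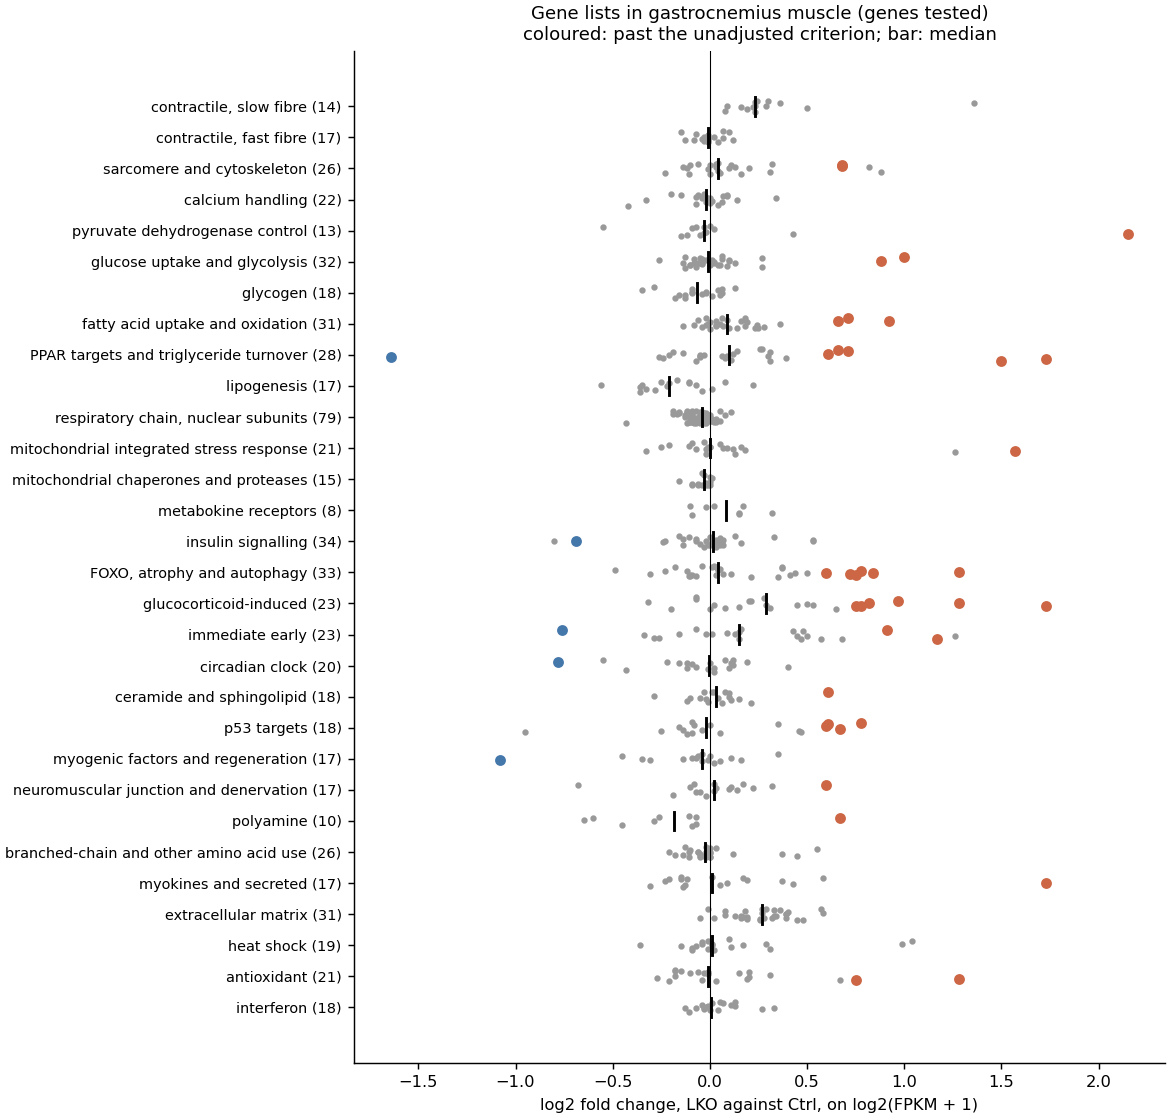
Log2 fold change (LKO against Ctrl, log2(FPKM + 1) scale) of each tested member of 30 gene lists, with the number tested in brackets, coloured dots for genes called by the unadjusted criterion and a black bar for the list's median. The called genes sit mostly to the right, in the PPAR, FOXO, glucocorticoid and p53 lists, while the medians of all lists lie between -0.21 and 0.29.

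Across the 30 lists, 656 distinct members were tested and 32 were called, 27 of them higher. The lists overlap and were written with earlier results of these data in view, so the counts describe these libraries and are not evidence that a pathway differs more than others.

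Traces of other tissues differed between libraries. Summed hepatocyte markers were 319, 24.4 and 243 FPKM in Ctrl 1, 2 and 3 and 116, 15.7 and 47.6 FPKM in LKO 1, 2 and 3 (exact permutation p = 0.3), and albumin (Alb) ran in the same order, from 8.32 FPKM in LKO 2 to 167 FPKM in Ctrl 1. None of the 7 hepatocyte markers was at 0 in every library, and none had a higher mean in LKO muscle. Of the 35 genes called lower, 8 (22.9%) were at least 10-fold higher in liver than in any GM library, against 2.66% of all genes tested. They were Cyp2f2, Hp, Mup3, Mup7, Mup10, Mup13, Selenbp2 and Serpina1e, and 3 of them (Cyp2f2, Hp and Mup10, 8.57% of the lower genes) were also at least 10-fold higher in iWAT, as were 5 of the 63 higher genes (7.94%: Angptl4, Ccl6, Ifi204, Ifi205 and Ms4a4a) and 2.79% of all genes tested. Hp had a mean of 2064 FPKM in Ctrl liver and 2828 FPKM in Ctrl iWAT. Mup7, a major urinary protein with near-identical relatives that may share its reads, was 25.5, 1.45 and 36.3 FPKM in Ctrl, 0.975 FPKM in LKO 1 and listed at 0 in LKO 2 and LKO 3, and in liver its mean was 8464 FPKM in Ctrl and 87.3 FPKM in LKO mice. Mup7 and Mup13 reached 1 FPKM in the Ctrl libraries of GM alone, and Ms4a4a in the LKO libraries alone. Each thus entered the test through the group where it is high. With the hepatocyte marker level as a covariate, an alternative chosen after the values were seen, 72 genes were called (48 higher, 24 lower), 32 of the 63 higher and 18 of the 35 lower ones among them, with Pdk4, Ucp3, Angptl4, Acot2, Txnip, Foxo1, Sesn1, Mt2, G0s2, Myod1, Bhlhe41 and Klf2 still called. Of the 8 genes of high liver level, Mup3, Mup7, Mup10, Mup13 and Serpina1e were still called, with folds of -2.13 to -0.93 in place of -3.42 to -1.79, and Cyp2f2 (-0.38), Hp (-0.74) and Selenbp2 (-0.52) were not. The calls of Cpt1a, Acot1, Plin5, Ucp2, Acer2, Lmod2, Xirp1, Tbc1d1, Trim63, Gadd45a, Mt1, Arrdc2 and Chac1 were lost with it, in most cases with a similar fold that slipped under the limit (Tbc1d1 -0.57, Plin5 0.52, Lmod2 0.55, Acot1 0.57) or with p above 0.05 (Ucp2 0.66, Arrdc2 0.89, Trim63 0.60), while Chac1 went from 1.57 to 0.66 and Mt1 from 0.75 to 0.43.

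**Figure D4:**
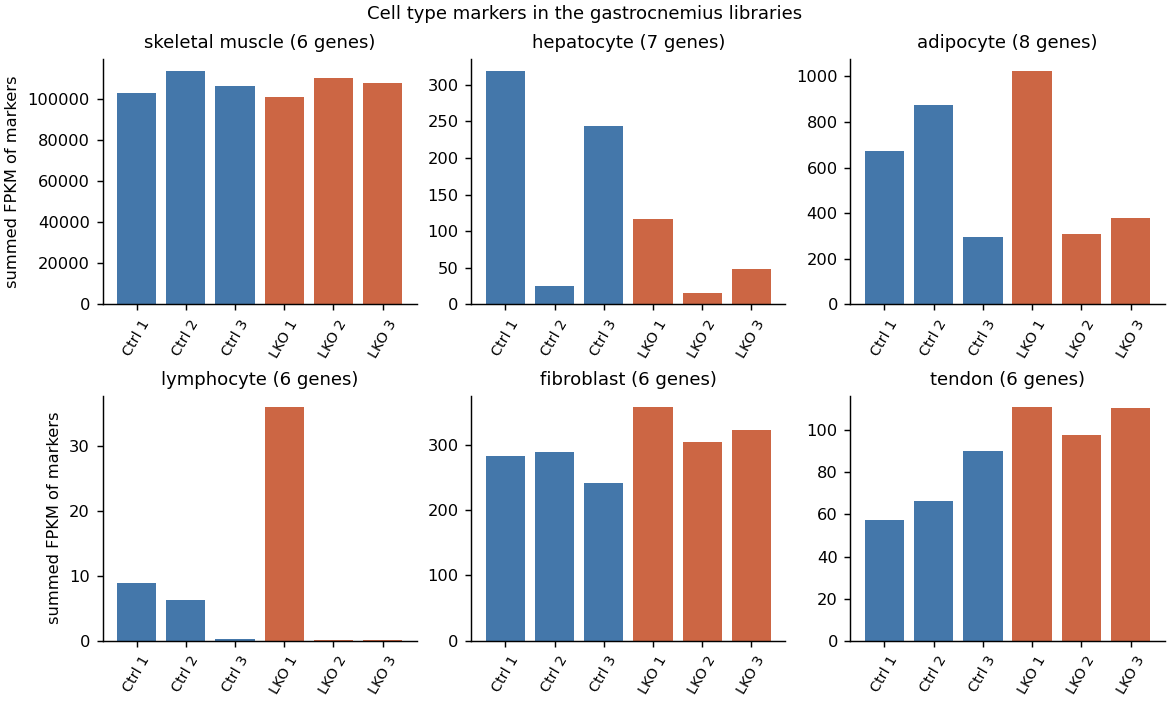
Summed FPKM of the markers of 6 cell types in each gastrocnemius library (blue Ctrl, orange LKO), with bars that start at 0 and an axis for each cell type. Skeletal muscle markers are level at 100900 to 113700 FPKM, hepatocyte markers are highest in Ctrl 1 and Ctrl 3, lymphocyte markers in LKO 1, and tendon markers are higher in all 3 LKO libraries.

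Lymphocyte markers summed to 35.9 FPKM in LKO 1 and to between 0.170 and 8.87 FPKM in the other libraries, macrophage markers to 15.7 to 23.8 FPKM in Ctrl and 19.9 to 33.8 FPKM in LKO mice, and the neutrophil marker Ly6g was at 0 in all 6. LKO 1 had the highest sum of lymphocyte, adipocyte and macrophage markers of the 6 libraries. Without it, limma called 13 genes by the adjusted criterion, 9 higher and 4 lower. The higher ones were Trp53inp1, Tmem140, Lmod2, Acot2, Tcp11l2, Wbp1l, Ablim1, Slc25a34 and Trim63, and the lower ones H2-Q7, Myod1, Vasp and Plekhh3. Ablim1, an actin-binding LIM protein, was 2.75 to 3.15 FPKM in Ctrl and 3.78, 12.7 and 13.6 FPKM in LKO 1, 2 and 3, and the immune gene H2-Q7 was 9.44 FPKM in LKO 1 against 0.929 and 0.941 FPKM in LKO 2 and LKO 3. The 2 LKO libraries left are a small group, and their spread is estimated with that of the 3 Ctrl libraries.

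Some of the largest values came from genes with near-identical copies, for which the counting may have moved reads from 1 copy to the other. Rps27 was 353, 325 and 258 FPKM in Ctrl and 1.27, 1.49 and 296 FPKM in LKO mice, while its copy Rps27rt at the same place was 0.967, 1.80 and 0.837 FPKM in Ctrl and 365.5, 308.5 and 1.08 FPKM in LKO mice. The sum of both was 259 to 367 FPKM in all 6 libraries, with a log2 fold change of 0.06. Hba-a2, an alpha globin gene, was 0.149, 0.178 and 91.4 FPKM in Ctrl and 86.7 to 118 FPKM in LKO mice, and with Hba-a1 the sum was 66.4 to 93.5 FPKM in Ctrl and 100.4 to 123 FPKM in LKO mice (0.46). Abi3 was 41.5, 1.05 and 47.7 FPKM in Ctrl and 0.546 to 1.09 FPKM in LKO mice, and Ube2v1 fell into a low and a high level too. Zfp973, a zinc finger gene in a cluster of like genes, was listed at 0 to 0.418 FPKM in Ctrl and was 1.42 to 1.86 FPKM in LKO mice. Calls on these genes are uncertain, and those of Rps27, Rps27rt, Hba-a2 and Ube2v1 held in 1 of the 6 fits without 1 library and that of Abi3 in 3.

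Among the 98 genes, 9 were miRNA loci, 5 of them higher. These libraries are of long RNA, so values at such a locus stem from precursors or the host transcript rather than from the mature miRNA. Mir133a-2 (chr2:180398379-180398482), a muscle miRNA locus, was 2.82, 2.83 and 3.31 FPKM in Ctrl and 11.9, 6.04 and 9.74 FPKM in LKO mice, with all LKO libraries above all Ctrl libraries (log2 fold change 1.32, SE 0.21, limma adjusted p = 0.341). Its host Mir1a-1hg was level at 17.4 to 20.2 FPKM. Mir22 was 10.4, 6.29 and 6.56 FPKM in Ctrl and 15.1, 12.3 and 11.8 FPKM in LKO mice (0.71, SE 0.18), and Mir2861, a locus lower without overlap, was 3.98, 3.22 and 3.57 FPKM in Ctrl and 1.24, 1.79 and 0.557 FPKM in LKO mice (-1.10, SE 0.21). Mir22 is named here because of its values. Their mature RefSeq sequences (GRCm38.p6) are shown to identify the products of these loci, with the seed, bases 2 to 8, in capitals, and no seed is shared.
mmu-miR-22-5p: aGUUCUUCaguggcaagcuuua
mmu-miR-22-3p: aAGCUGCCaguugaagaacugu
mmu-miR-2861: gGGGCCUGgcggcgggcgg
Gdf1, likewise named because of its values, was lower (19.9 to 22.9 FPKM in Ctrl, 12.0 to 15.8 FPKM in LKO mice, -0.61, SE 0.11), a call lost without Ctrl 3, LKO 2 or LKO 3. It shares its transcript with Cers1, listed at 0.282 to 0.724 FPKM, so that reads of both cannot be told apart.

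The muscle values were set beside those of the other tissues, which were compared between their own LKO and Ctrl libraries. Of the genes called higher in GM, 43 were tested in liver and 26 of these (60.5%) were called higher there, where 25.2% of all tested genes were. They are 0.943% of the 2757 genes called higher in liver. In iWAT 10 of 53 (18.9%) were called higher, against a background of 1.95%, namely Acer2, Car4, Egr1, Galnt15, Gramd1b, Hba-a2, Map3k6, Mcf2l, Pdk4 and Txnip. In hypothalamus 3 of 47 were, Angptl4, Map3k6 and Plin4 (background 0.166%). Of the genes called lower in GM, 8 of 20 were called lower in liver (40%, background 3.75%) and 9 of 24 in iWAT (37.5%, background 1.29%), where they included G0s2, Smtnl2 and 5 of the 8 genes of high liver level (Cyp2f2, Hp, Mup7, Mup10 and Mup13), and 1 of 20, Abi3, in hypothalamus (background 0.166%). With libraries of 1 mouse possibly shared between tissues, these counts are a description.

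The difference between tissues was tested as an interaction in 1 limma fit of all 24 libraries. The GM effect differed from the liver effect for 4466 genes (41.1%), from the iWAT effect for 38 (0.349%) and from the hypothalamus effect for 2 (0.0184%), which were Mir133a-2 and Zfp973. Zfp973 reached the minimum of 1 FPKM in the 3 LKO libraries of GM alone, so it entered the test through the group where it is high. The liver count depends on the scaling, since the GM effect minus the liver effect had a median of -0.34 over all genes as deposited and of 0.02 with median-ratio scaling, where 2426 genes differed and the GM effect was higher for 1281 and lower for 1145 of them, in place of 266 and 4200. Of the 98 genes called in GM, 50 differed from liver (46 after scaling), 2 from hypothalamus and 1, Mir133a-2, from iWAT, and with median-ratio scaling 4 differed from hypothalamus and 8 from iWAT. The iWAT count of 38 moved to 95 when Ctrl 2 was left out, to 92 for LKO 1, to 22 for LKO 2, to 20 for Ctrl 3 and to 18 for LKO 3, and the hypothalamus count of 2 to 8 for Ctrl 2, to 18 for LKO 1 and to 1 for Ctrl 3 or LKO 2. Pdk4 had a log2 fold change of 4.20 in liver, 1.28 in iWAT and 0.35 in hypothalamus, and its difference from liver, -2.05 (limma adjusted p = 0.0310), passed the threshold on the deposited scale and not after median-ratio scaling. G0s2 was lower in GM and higher in liver by 2.15, and the difference of -3.79 held in both scalings (limma adjusted p = 2.13e-05). Foxo1 had 0.18 in liver, 0.08 in iWAT and 0.25 in hypothalamus, and its GM effect exceeded that of liver by 0.66 (limma adjusted p = 0.00566).

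**Figure D5:**
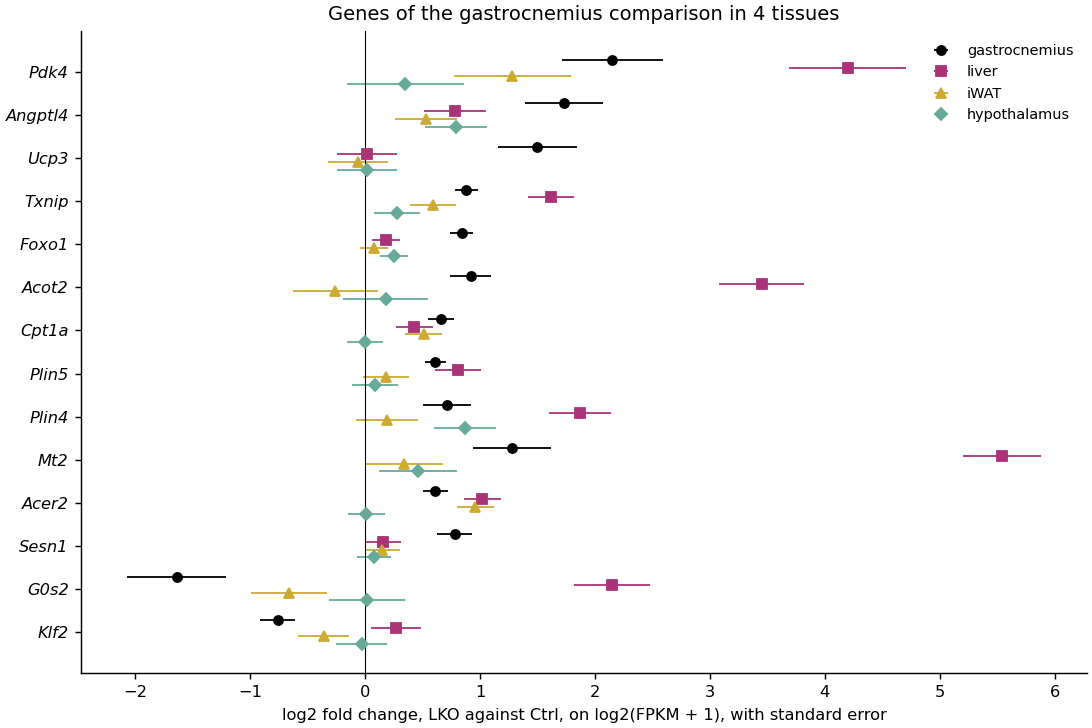
Log2 fold change (LKO against Ctrl, log2(FPKM + 1) scale) with its standard error for 14 genes in gastrocnemius (circles), liver (squares), iWAT (triangles) and hypothalamus (diamonds). Pdk4, Acot2 and Mt2 lie furthest to the right in liver, Ucp3, Foxo1 and Sesn1 in gastrocnemius, and G0s2 lies at -1.64 in gastrocnemius and 2.15 in liver.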

How the data were processed

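Libraries were made from total RNA with an unstranded poly(A) kit and sequenced as 100-nt paired reads. The authors deposited 1 joined table of FPKM and, per library, a table of FPKM, TPM and per-base coverage for each gene. The deposited FPKM values, per kilobase and library size, were used as the main measure. The TPM values, which the authors scaled to a fixed sum in each library, were an alternative. The deposited coverage served only to infer the depth of each library from its ratio to FPKM, shared by at least 70.6% of genes in each GM library (Ctrl 5.019, 4.724 and 5.925 gigabases, LKO 5.15, 5.75 and 4.447). No counts were used, so no counting interval is given. The submitters' processing notes name, with no order or role, FastQC 0.11.5, Trimmomatic 0.32, HISAT2 2.0.5, Bowtie2 2.2.6, STAR 2.5.2b, StringTie 1.3.3b and mm10.

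Samples were grouped by the tissue and genotype of their labels. Genes at 1 FPKM or more in at least 3 of the 6 GM libraries were fitted on log2(FPKM + 1) with limma 3.58.1 (R 4.3.3), moderated variances and Benjamini-Hochberg adjustment, and tissues were compared as interactions in 1 limma fit of 24 libraries, with the same genes. Marker sums were compared with a 2-sided exact permutation test. The code was tested on simulated data. Tables and figures were made with Python 3.11.15, numpy 2.4.6, pandas 2.3.3 and matplotlib 3.10.9. Promoters and miRNAs came from RefSeq (GRCm38.p6).

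Alternatives were another pseudocount, other filters, median-ratio scaling, quantile normalization, TPM, ordinary variances, a replicate block, 1 fit of all tissues, a fold limit of 2, each library left out and, chosen after the values were seen, the hepatocyte or adipocyte marker level as a covariate. Named genes were Crif1, the genes the study names or measures in GM, Fgf21 and Gdf15, the 10 largest changes in each direction among called genes without overlap, every called member of a list, the up to 3 widest-changing members per list, and the genes past the adjusted criterion, also without 1 library where these are 15 or fewer. The members and lists were chosen with earlier results of these data known.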

Additional observations from a re-analysis of the deposited data

Results flagged for a closer look

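Of 79 named genes followed through the alternative settings, 16 were called in GM, reached the FPKM minimum in liver as well and had a GM effect that differed from the liver effect in the limma interaction fit of all 24 libraries, both as deposited and with median-ratio scaling. Called genes at or near 0 FPKM in liver, such as Ucp3, Myod1, Bhlhe41, Lmod2 and Mir133a-2, also differed from liver and are not listed, since liver has no level of them to compare. The highest of the adjusted p-values on the deposited scale was 0.0302, and each value below is the GM log2 fold change minus that of liver.

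Genes whose fold changes in GM and liver had opposite signs on the deposited scale come first. G0s2, the inhibitor of the lipase ATGL, differed by -3.79 (SE 0.46, GM -1.64, liver 2.15), with means of 20.8 ± 6.45 and 93.0 ± 7.45 FPKM in Ctrl and LKO liver (SD, n = 3). Tbc1d1 differed by -1.86 (GM -0.69, liver 1.17) and Plekhh3 by -1.33 (GM -0.89, liver 0.44). Pfkfb3 differed by 2.16 (GM 1.00, liver -1.16), Arrdc2 by 1.66 (GM 0.97, liver -0.69) and Mir22 by 1.35 (GM 0.71, liver -0.64). With median-ratio scaling the differences were -3.37 for G0s2, -1.62 for Tbc1d1 and -0.98 for Plekhh3. They were 2.62 for Pfkfb3, 2.12 for Arrdc2 and 1.83 for Mir22.

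Genes that went in the same direction in both tissues and by more in liver were Mt2 at -4.26 (GM 1.28, liver 5.54), Mt1 at -3.77, Gadd45a at -2.62, Acot2 at -2.53 and Egr1 at -1.91. Mup7, lower in both, differed by 3.30 (GM -3.42, liver -6.72). It reached 1 FPKM in the Ctrl libraries of GM alone, so it entered the test through the group where it is high. Its GM fold change is limited by values at 0 in LKO 2 and LKO 3. Abi3, whose GM libraries fall into a low and a high level, differed by -3.72, with a liver effect of 0.52 (SE 0.77) that is within its error.

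Genes with the larger effect in GM were Foxo1 at 0.66 (GM 0.84, liver 0.18), Sesn1 at 0.62 (GM 0.78, liver 0.16) and Wbp1l at 0.58 (GM 0.84, liver 0.26). With median-ratio scaling, which moved the median GM minus liver difference over all genes from -0.34 to 0.02, these 3 values were 1.14, 1.05 and 1.05.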

How the results depend on the processing

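Against 98 genes called in GM by the unadjusted criterion, 178 were called with a pseudocount of 0.1, 61 at a mean of at least 5 FPKM, 155 on the deposited TPM, 57 with ordinary variances and 25 at a fold limit of 2, and 81 to 201 with 1 library left out (201 without LKO 1, 171 without Ctrl 2). By the adjusted criterion, 0 genes became 22 with all 24 libraries in 1 fit, 1 with the adipocyte covariate and 0 to 13 with 1 library left out, namely 13 without LKO 1, 3 without LKO 3, 1 without Ctrl 2 (Abi3) and 1 without Ctrl 3 (Hba-a2), the last 5 from genes in which reads of near-identical copies may move or which fall into a low and a high level. Median-ratio scaling moved the split of calls from 63 higher and 35 lower to 71 and 30, quantile normalization to 70 and 27. With the replicate block, in which libraries of the same number are paired, 145 genes were called (68 higher, 77 lower) and 0 by the adjusted criterion. Deviations of same-numbered libraries correlated at 0.354, 0.0499 and 0.163, and LKO 2 correlated best with Ctrl 3 (0.239). Whether libraries of the same number share more than the number cannot be read from the labels and was not tested.

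The 4466 genes whose GM effect differed from liver became 2426 with median-ratio scaling, 1867 with quantile normalization, 4420 with the block and 3395 to 5043 with 1 library left out. The 38 against iWAT became 11 with a pseudocount of 0.1, 78 with no filter, 17 at a mean of 5 FPKM, 99 and 94 with median-ratio scaling and quantile normalization, 70 with the block and 18 to 95 with 1 library left out. The 2 against hypothalamus became 0 with a pseudocount of 0.1, 9 with no filter, 1 at a mean of 5 FPKM, 8 and 4 with the other scalings, 1 on TPM, 4 with ordinary variances and 1 to 18 with 1 library left out. The cause of these moves was not tested.

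Of 1319 values under other settings, for 79 of the 118 genes that the naming rule gives, 1145 kept direction and side of the threshold, 132 lost the call, 38 gained it and 4 changed sign. Those 4 were Crif1, which ranged from -0.11 to 0.11 with 1 library left out (-0.00 without Ctrl 2, -0.04 without Ctrl 3), and Mb, 0.36 in the report's fit and -0.13 with the hepatocyte covariate. Outside the 79, Psmb9, Sphk2, Mylk2 and Cish, none of them called, also changed sign in at least 1 setting. The marker levels of skeletal and smooth muscle went from -0.02 and -0.00 to 0.01 and 0.02 after median-ratio scaling. Of 360 list medians, 11 moved by more than the spread between replicates. With 3 libraries a group the exact permutation p cannot go below 0.1, and genes under 1 FPKM in most libraries, Fgf21 and Gdf15 among them, were not tested.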

Other observations

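Some slow-fibre and stretch-responsive genes outside the called set differed widely between single libraries. Mb, the oxygen store of oxidative fibres, was 809.8, 1739 and 943.5 FPKM in Ctrl 1, 2 and 3 and 891, 1866 and 1692 FPKM in LKO 1, 2 and 3, so that Ctrl 2, LKO 2 and LKO 3 stood above the other libraries of both groups. The stretch-responsive gene Ankrd1 had a log2 fold change of 0.88 and the cardiac actin Actc1 one of 0.82, and neither was called.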
